A study of Rattus norvegicus with 12 samples.

Results

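The genes described here encode subunits of voltage-gated calcium channels, voltage-gated sodium channels and HCN channels. They are all symbols in the count files that start with Cacna, Cacnb or Cacng, or with Scn or Hcn followed by a digit. This rule uses no measured value, but it was chosen with earlier results of these data known. The rule took 44 of 17172 genes, and 37 of the 44 passed the expression filter and were tested. By family, 10 members are pore-forming calcium channel alpha1 subunits (Cacna1), 4 are alpha2delta subunits (Cacna2d), 4 are beta subunits (Cacnb) and 8 are gamma subunits (Cacng). Another 10 are sodium channel alpha subunits, 4 are sodium channel beta subunits and 4 are HCN channels.

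RNA came from the ventral dentate gyrus of male Sprague-Dawley rats of a pair of lines. FSL, the Flinders Sensitive Line, is a common rat model of depression, and FRL, the Flinders Resistant Line, serves as its control. The 12 libraries form 4 groups of 3. FRL vehicle and FSL vehicle rats drank tap water. LAC responders and LAC non-responders are FSL rats that drank 0.3% w/v L-acetyl-carnitine (LAC), about 210 mg/kg per day, and treatment lasted 7 days. Each group's 3 libraries are biological replicates, per the labels. The age of the rats, how many of them stand behind a library and how responders were told from non-responders was not given in the sources used here. P-values therefore measure the spread between these libraries only.

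Calcium channels open on depolarization and let in the calcium that triggers transmitter release and gene expression. Their alpha1 subunit forms the pore, while alpha2delta and beta subunits carry it to the membrane and tune its gating. Sodium channels carry the upstroke of the action potential, with beta subunits that adjust gating and bind neighbouring cells. HCN channels open on hyperpolarization and carry a mixed cation current that sets resting potential and dendritic integration. Dentate granule neurons are known for sparse firing, and the interneurons around them for fast, sustained firing.

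The libraries held 5.91 to 8.14 M counts in genes (M for mega), and 3 counts corresponded to 0.368 to 0.511 counts per M counts (CPM), a floor for counting error only. Levels below are CPM on TMM-scaled library sizes (a scaling for composition), as mean ± SD with n = 3. Because transcript lengths were not used, levels are compared between libraries and never between genes. Granule neuron markers were present in all libraries, with Prox1 at 51.6 to 129 CPM in 10 of them, but at 9.19 CPM in responder 1 and 10.4 CPM in FRL vehicle 2. FSL vehicle 3 stood apart in its summed meningeal markers (2636 CPM against 90.1 to 825 in the other 11 libraries) and endothelial and mural markers (1429 CPM, all 9 of 9 highest there). Choroid plexus markers summed to 3196 CPM in FSL vehicle 1, 354 in FSL vehicle 3 and 6034 in non-responder 1, against 11.7 to 54.3 in the others. In bulk tissue, fewer cells of a type and less RNA per cell cannot be told apart.

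The sequences upstream of the start are shown for the members of lowest unadjusted p between the lines, where RefSeq had an entry. That table (build GRCr8) matched 28 of the 44 members, among them 4 of the 7 with an unadjusted p under 0.05. Each line gives the 250 bases before the annotated start, 5′ to 3′ on the gene's strand. Capitals mark a GC box (GGGCGG) or a TATA box (TATAAA) found on either strand; the motifs share no overlap. Scn2a1 stands in the table as Scn2a.
Cacna1a, chr19:40650469-40650718, minus strand: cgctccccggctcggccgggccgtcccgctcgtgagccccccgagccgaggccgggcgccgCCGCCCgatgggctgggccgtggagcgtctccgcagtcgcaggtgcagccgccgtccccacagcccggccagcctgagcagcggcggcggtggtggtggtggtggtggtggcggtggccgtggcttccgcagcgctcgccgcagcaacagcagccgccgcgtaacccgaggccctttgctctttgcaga
Scn2a1, chr3:70710706-70710955, plus strand: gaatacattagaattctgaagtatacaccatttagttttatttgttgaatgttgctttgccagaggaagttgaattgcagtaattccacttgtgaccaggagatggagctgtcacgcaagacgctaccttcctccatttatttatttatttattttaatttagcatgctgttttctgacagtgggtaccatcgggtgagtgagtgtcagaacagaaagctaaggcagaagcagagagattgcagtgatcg
Scn8a, chr7:133860977-133861226, plus strand: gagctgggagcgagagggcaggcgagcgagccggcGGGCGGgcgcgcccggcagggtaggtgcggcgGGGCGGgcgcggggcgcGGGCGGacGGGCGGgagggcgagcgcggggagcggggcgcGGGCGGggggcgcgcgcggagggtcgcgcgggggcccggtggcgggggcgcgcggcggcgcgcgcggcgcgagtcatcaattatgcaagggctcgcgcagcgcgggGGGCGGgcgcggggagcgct
Cacng2, chr7:111577758-111578007, minus strand: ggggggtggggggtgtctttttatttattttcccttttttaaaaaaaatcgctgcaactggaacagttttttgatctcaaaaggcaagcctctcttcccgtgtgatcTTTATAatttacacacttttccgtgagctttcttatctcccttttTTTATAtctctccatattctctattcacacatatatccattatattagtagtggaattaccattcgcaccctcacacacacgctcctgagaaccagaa
The stretch before Scn8a was 86% G or C and held 6 GC boxes, and that before Cacna1a was 76.8% G or C with 1 GC box. Those before Scn2a1 (39.6% G or C) and Cacng2 (38.4%) held no GC box, and Cacng2 had 2 TATA boxes. Over the 28 matched members, 14 (50%) held a GC box against 30.5% of 33469 promoters, and 2 (7.14%) held a TATA box against 12.9%. The median G or C share was 63% in members and 51.2% in all promoters. These are letter matches in 1 window per gene.

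No member passed the threshold in any comparison between groups. The threshold was an adjusted p of 0.05 from edgeR's quasi-likelihood test with Benjamini-Hochberg adjustment over 11750 genes. The test of all 4 groups together called 0 members, against 0.0255% of genes (3 genes). In that test 4 of 37 members had an unadjusted p under 0.05 (Cacng4 and Scn2a1 among them), against 9.02% of genes. DESeq2, limma-voom and every other setting tried also called 0 members in each of the 4 pairwise comparisons, all at the same threshold. The values below are therefore descriptions of levels and their spread.

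**Figure D1:**
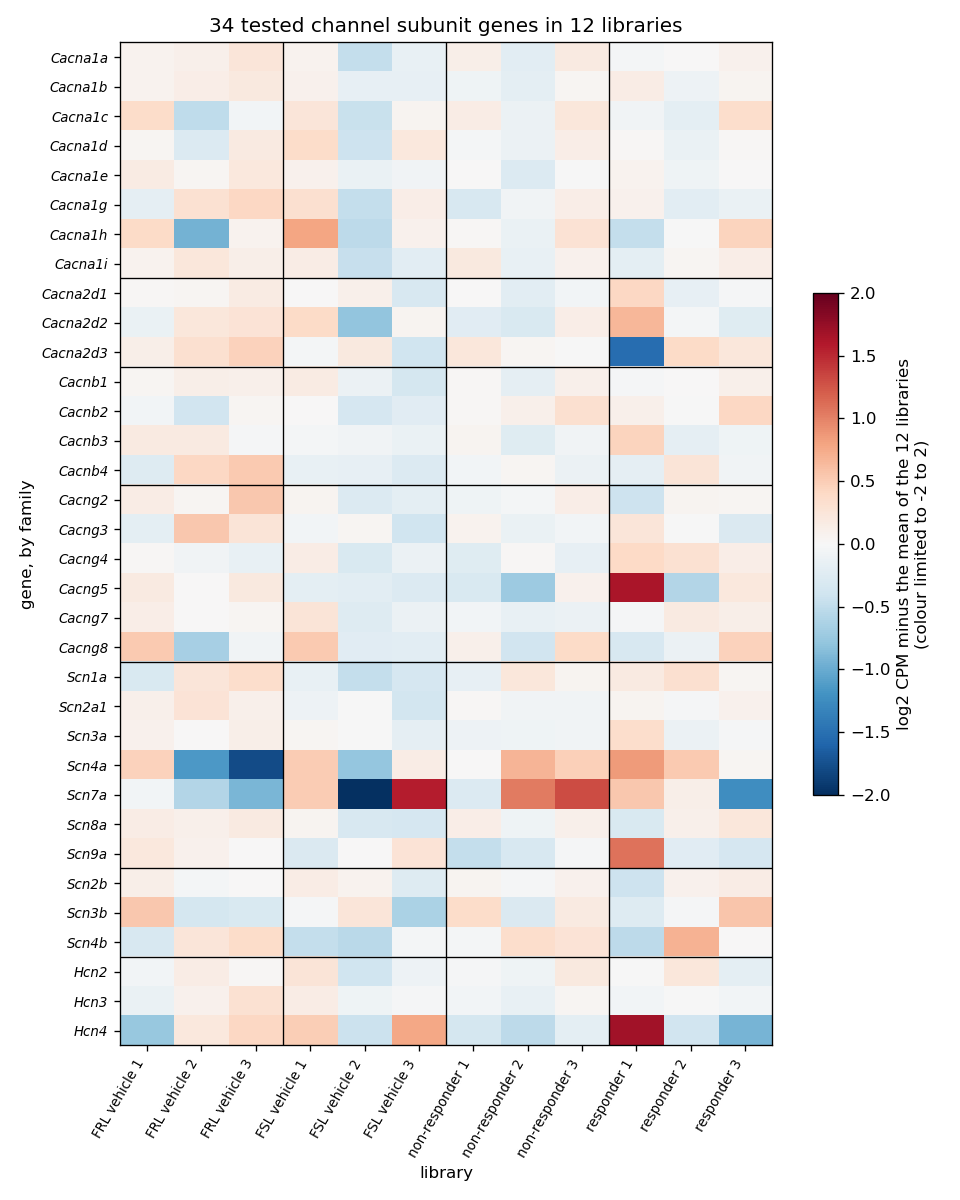
Level of 34 tested members in each of the 12 libraries, drawn as the difference of log2 CPM from that member's own mean and grouped by family, with colour limited to -2 to 2; columns are libraries in their 4 groups. Most rows show small differences, while responder 1 stands out in Hcn4 (14 CPM against 2.29 to 7.42 in the other 11) and Cacng5 (11.5 CPM against 2.24 to 4.32).

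Between the lines, most channel subunits had a lower mean in FSL vehicle than in FRL vehicle. Of 37 members, 30 had a negative log2 fold change (81.1%, against 51.6% of all genes tested), and the members' median was -0.17 against -0.0083 for all genes. The members' median was -0.28 without FSL vehicle 1, -0.11 without FSL vehicle 3 and -0.32 without the 3 libraries with high choroid plexus sums. With unscaled library sizes 28 of 37 members and 4793 of 11750 genes were negative. Called at the adjusted threshold were 0 members, against 0.0681% of genes (8 genes). At an unadjusted p under 0.05 there were 7 members (18.9%, against 13.9% of genes), all lower in FSL, where 4.53% of genes were. DESeq2 and limma-voom gave 7 each (11.5% of genes by either). The 3 FSL and 3 FRL libraries did not overlap for 5 members, all lower in FSL (Scn2a1, Scn8a, Cacnb3 and Cacng5 among them): 13.5%, against 13.8% of genes that lay apart in either direction and 6.23% lower.

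The count of 7 depended on single libraries. Without FSL vehicle 1 it was 13 (17.7% of genes), and without FSL vehicle 3 it was 2 (6.28% of genes). It was 3 without FRL vehicle 2 (9.62% of genes) and 2 without FRL vehicle 3 (10.1% of genes). Leaving out non-responder 1, non-responder 3 or responder 2, which belong to neither compared group, gave 4 each (13.5%, 12.6% and 12.7% of genes). Such libraries enter through the shared spread, the expression filter and the scaling factors, all redone in each fit. Scn2a1 had an unadjusted p under 0.05 in all 12 of these fits. FSL vehicle 3, with its high meningeal and vascular markers, had the lowest level of the 12 libraries in 9 members, while 21.1% of all genes were lowest there. FSL vehicle 2 was lowest in 11 members (14.3% of genes) and FRL vehicle 3 highest in 10 (8.37% of genes). Of 16 marker lists, 5 had sums that were higher in every FSL than in every FRL vehicle library. They were thalamus and midbrain (327 to 371 CPM in FSL against 229 to 263 in FRL vehicle), microglia (267 to 316 against 201 to 222) and oligodendrocyte precursors (370 to 546 against 320 to 332). The remaining ones were endothelial and mural markers (411 to 1429 against 291 to 375) and choroid plexus (43.9 to 3196 against 11.7 to 24.7). Of the precursor markers, Pdgfra alone lay apart (166 to 372 CPM in FSL against 128 to 157 in FRL vehicle). Olig1 (50.7 to 68.5 against 60.2 to 74.3) and Olig2 (20.3 to 29.4 against 27.1 to 31.2) overlapped. Olig1, Olig2 and Gpr17 were lowest of the 12 libraries in FSL vehicle 3. The other lists also held markers that overlapped. Ntng1, of the thalamus and midbrain list, had 69.3 to 179 CPM in FSL against 87.6 to 97.7 in FRL vehicle. Microglial Cx3cr1 (20.6 to 30.4 against 21.1 to 24.5), endothelial Flt1 (64.2 to 106 against 69.5 to 81.3) and choroid plexus Kl (1.42 to 181 against 0.667 to 2.57) overlapped as well. Prkcd, Csf1r, Cldn5 and Ttr, from the same lists, lay apart and were higher in FSL. The part of these markers in the result was not tested.

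**Figure D2:**
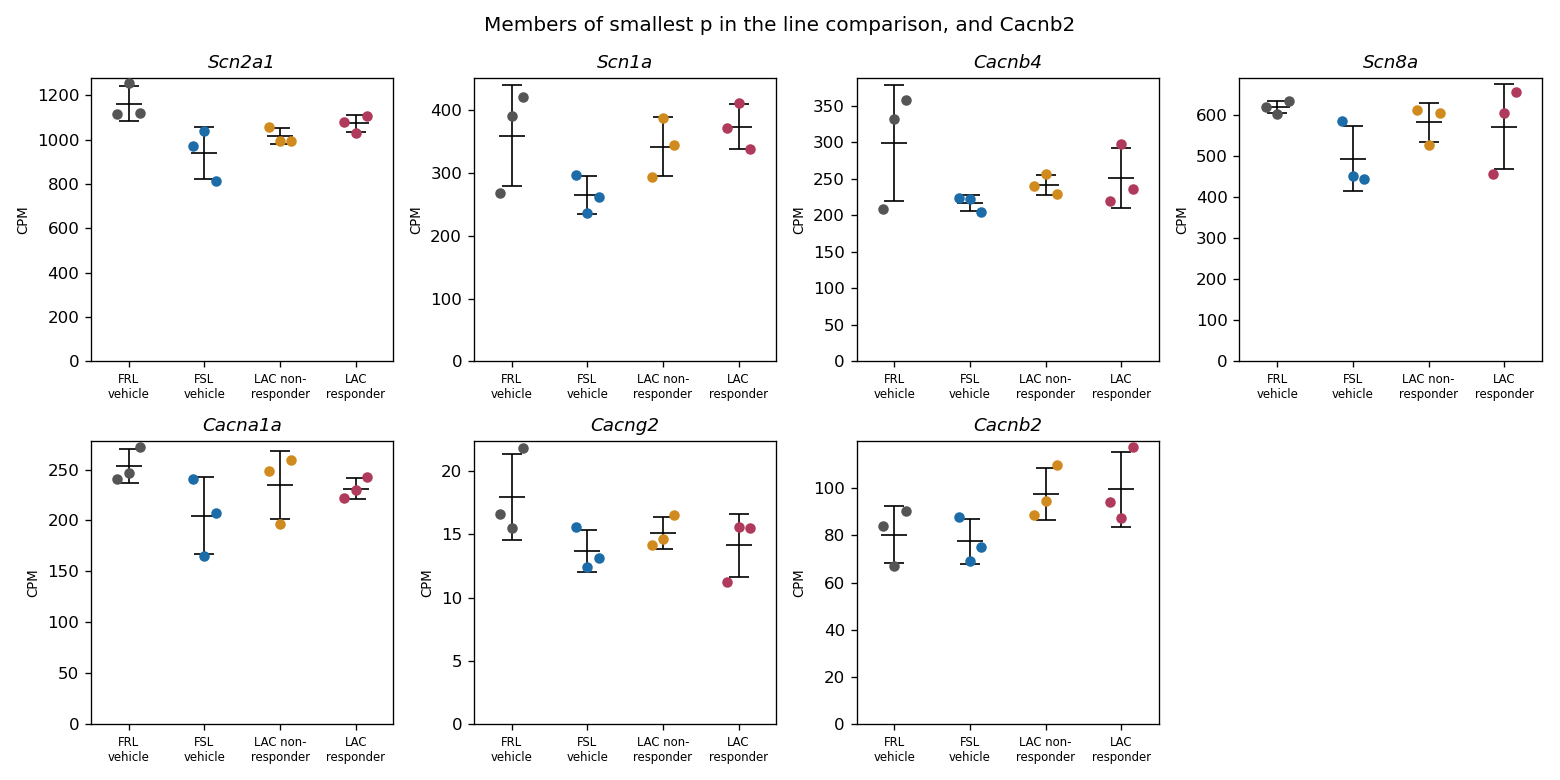
CPM of Cacnb2 and of 6 members with an unadjusted p under 0.05 between the lines in each library of the 4 groups, on linear axes that start at 0, with 1 point per library and bars for the mean ± SD (n = 3). In Scn2a1 the 3 FSL vehicle points (813 to 1040 CPM) lie below all 3 FRL vehicle points (1115 to 1254 CPM).

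Most channel subunits had a higher mean in LAC responders than in FSL vehicle. The line comparison and both LAC comparisons share the FSL vehicle libraries, so their signs are not independent of each other. Of 37 members, 28 had a positive log2 fold change in responders against FSL vehicle (75.7%, against 52% of genes), with a median of 0.15 against 0.01. The members' median was 0.24 without FSL vehicle 1 (2 of 37 negative), 0.09 without FSL vehicle 3 and 0.34 without the 3 libraries with high choroid plexus sums. In the last of these fits FSL vehicle 2 alone stood for its group. At the adjusted threshold edgeR called 0 members and 0 genes (0%), with a smallest member adjusted p of 0.275. At an unadjusted p under 0.05 there were 5 members, all higher (13.5%, against 13.8% of genes in either direction and 4.61% higher). DESeq2 and limma-voom gave 4 each (11.1% and 11.5% of genes). Scn1a alone had groups that did not overlap (2.7%, against 12.5% of genes that lay apart in either direction and 6.37% higher). The count of 5 became 10 without FSL vehicle 1 (16.3% of genes), 1 without FSL vehicle 3 (5.38% of genes) and 3 without responder 2 (10.2% of genes). Sums of 3 marker lists were lower in every responder than in every FSL vehicle library: meningeal (90.1 to 217 against 245 to 2636 CPM), endothelial and mural (340 to 386 against 411 to 1429) and oligodendrocyte precursors (355 to 369.6 against 369.7 to 546). Within the precursor list, Pdgfra was at 137 to 176 CPM in responders against 166 to 372 in FSL vehicle. Olig2 went the other way, with 33.3 to 42.8 CPM in responders, all above FSL vehicle (20.3 to 29.4). Olig1 overlapped (64.2 to 94.4 CPM against 50.7 to 68.5). Endothelial Flt1 (72.3 to 84.1 CPM against 64.2 to 106) and meningeal Col1a1 (7.93 to 33.2 against 20.6 to 379) overlapped too. Pdgfrb and Dcn, from these lists, lay apart and were lower in responders. The part of these marker lists in the result was not tested.

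In non-responders against FSL vehicle the signs were nearly balanced over the 12 libraries, but not without FSL vehicle 1. Of 37 members, 21 were positive (56.8%, against 48.9% of genes), with a median of 0.04 against -0.0039, and single left-out libraries moved that median from -0.03 to 0.17. The ends were reached without FSL vehicle 3 and without FSL vehicle 1, the latter with 4 of 37 members negative. Without the 3 libraries with high choroid plexus sums, where FSL vehicle 2 alone stood for its group, the median was 0.19, with 12 of 38 negative. With unscaled library sizes 18 members were negative, as were 7167 of 11750 genes, and 18 members with RLE size factors, against 16 with TMM. EdgeR called 0 members and 0 genes (0%) after adjustment, with a smallest member adjusted p of 0.976. There were 3 members with an unadjusted p under 0.05, all higher (8.11%, against 4.21% of genes in either direction and 1.89% higher). DESeq2 gave 3 (3.53% of genes) and limma-voom 2 (3.71% of genes). Groups did not overlap for 4 members, all higher in non-responders (Scn4b, Cacnb2 and Cacnb4 among them): 10.8%, against 7.8% of genes that lay apart in either direction and 4.68% higher. The 3 became 6 without FSL vehicle 1 (10% of genes) and 0 without FSL vehicle 3 (2.7% of genes). They became 1 without non-responder 2 (3% of genes) and 0 without non-responder 3 (3.35% of genes). Oligodendrocyte markers summed to 6808 to 11174 CPM in non-responders, all above FSL vehicle (3864 to 5477), and thalamus and midbrain markers to 240 to 282 CPM, all below it (327 to 371). Within the thalamus and midbrain list Ntng1 overlapped (74.6 to 98.8 CPM against 69.3 to 179), while Zic1 lay apart (5.15 to 7.77 against 9.25 to 34). FSL vehicle 2, lowest of the 12 libraries in 11 members, was also lowest in all 7 oligodendrocyte markers. The part of these markers was not tested.

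Between responders and non-responders the members' median was near 0. Of 37 members, 22 were positive (59.5%, against 50.3% of genes), with a median of 0.03 against 9.72e-04, and the median ran from -0.01 without non-responder 2 to 0.09 without non-responder 3. EdgeR called 0 members and 0 genes (0%) after adjustment, with a smallest member adjusted p of 0.992. Unadjusted, 2 members were under 0.05, both higher in responders (5.41%, against 3.14% of genes in either direction and 1.18% higher). DESeq2 (2.54% of genes) and limma-voom (2.39% of genes) each gave 1, Cacng4. Cacng4 and Cacng7 had groups that did not overlap (5.41%, against 11.3% of genes that lay apart in either direction and 5.76% higher). The 2 became 1 without responder 1 (2.3% of genes) or non-responder 1 (2.9% of genes). They became 4 without responder 2 (3.83% of genes) and 5 without responder 3 (3.14% of genes). Meningeal marker sums alone of the 16 lists lay apart between these groups (90.1 to 217 CPM in responders against 335 to 595), and their part was not tested. Within that list Col1a1 overlapped (7.93 to 33.2 CPM against 12.8 to 77.2), while Dcn lay apart.

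**Figure D3:**
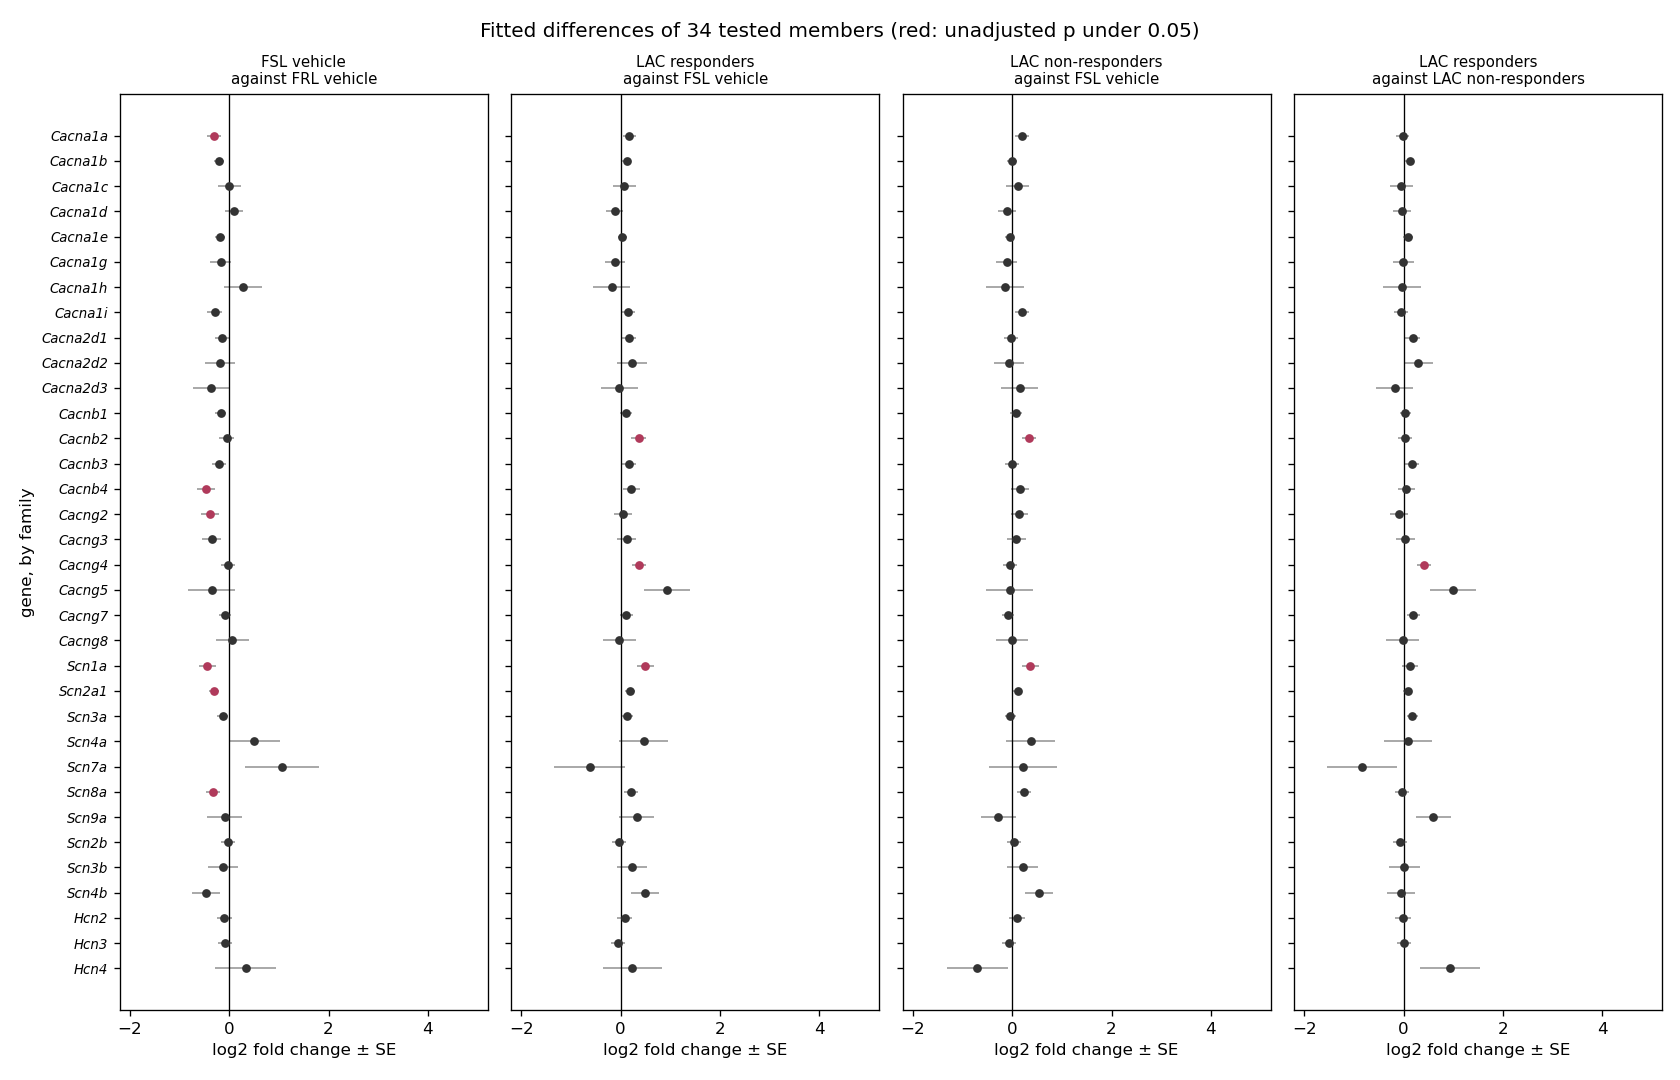
Log2 fold change ± SE of 34 tested members in the 4 comparisons, grouped by family, with members of unadjusted p under 0.05 in red and a vertical line at 0. In the line panel 27 of 34 points lie left of 0, and in the panel of responders against FSL vehicle 26 of 34 lie right of it.

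Among the alpha1 subunits, 8 of 10 members were tested, and 5 of these 8 were lower in FSL than in FRL vehicle (median -0.18). The medians were 0.05 in responders and -0.02 in non-responders against FSL vehicle, and -0.02 between the LAC groups. Cacna1a encodes the pore of P/Q-type channels, the main presynaptic calcium channels for fast release. It stood at 241, 247 and 272 CPM in FRL vehicle (253 ± 16.7), and at 241, 165 and 208 in FSL vehicle (205 ± 38). Non-responders had 248, 197 and 259 CPM (235 ± 33.3) and responders 222, 230 and 242 (231 ± 10.3). FSL vehicle 1 lay at the lower edge of FRL vehicle, so the groups met and only FSL vehicle 2 and 3 were lower. Its log2 difference between the lines was -0.31 ± 0.14 (SE; unadjusted p = 0.0437, adjusted p = 0.344); this member was picked out after its values were seen, as was Cacng2 below.

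Cacna1b, the pore of presynaptic N-type channels, had 287, 300 and 313 CPM in FRL vehicle (300 ± 13) and 290, 244 and 245 in FSL vehicle (259 ± 26.1). Non-responders averaged 259 ± 21.1 CPM and responders 282 ± 25.3. Again FSL vehicle 1 lay inside the FRL range, and the line difference was -0.21 ± 0.10 (unadjusted p = 0.0523). Cacna1e, the pore of R-type channels, had 763, 698 and 783 CPM in FRL vehicle (748 ± 44.2) and 719, 617 and 646 in FSL vehicle (660 ± 52.4). Its non-responders averaged 638 ± 64.4 CPM and its responders 676 ± 35.5, and non-responder 2 (564 CPM) was the lowest of the 12 libraries. The line difference of Cacna1e was -0.18 ± 0.10 (unadjusted p = 0.0867).

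The L-type and T-type pores varied more from library to library. The L-type genes Cacna1c (124 to 227 CPM) and Cacna1d (95.3 to 165 CPM) overlapped between all groups. The T-type gene Cacna1h ran from 54.7 CPM in FRL vehicle 2 to 181 CPM in FSL vehicle 1, and its vehicle groups each covered most of that range. Cacna1g, another T-type gene, ran from 80.4 to 149 CPM. Cacna1i, the remaining T-type gene, averaged 153 ± 8.67 CPM in FRL and 125 ± 26.3 in FSL vehicle, with overlap at FSL vehicle 1 (153 CPM). FRL vehicle 2, the library low in Prox1, was lowest of all in Cacna1c, Cacna1h, Cacnb2 and Cacng8.

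The alpha2delta subunits, targets of the gabapentinoid drugs in the case of Cacna2d1 and Cacna2d2, had 3 of 4 members tested, and all 3 had lower means in FSL than in FRL vehicle (median -0.18). Cacna2d1 had 301, 304 and 331 CPM in FRL vehicle, 297, 315 and 236 in FSL vehicle, 295, 255 and 285 in non-responders and 393, 264 and 289 in responders. Cacna2d3 had 330, 381 and 421 CPM in FRL vehicle and 298, 348 and 230 in FSL vehicle. Its non-responders had 356, 312 and 304 CPM, and its responders 106, 399 and 355. Responder 1 was thus highest of the 12 libraries in Cacna2d1 and lowest in Cacna2d3, where the next lowest library was at 230 CPM. Median differences for the family were 0.16 in responders and -0.02 in non-responders against FSL vehicle, and 0.18 between the LAC groups.

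All 4 cytoplasmic beta subunits were tested. Each had a lower mean in FSL than in FRL vehicle (median -0.19) and a positive difference in responders against FSL vehicle (median 0.19). In non-responders all 4 were positive (median 0.12), and 1 was negative with unscaled library sizes or RLE size factors. Cacnb4, a beta subunit whose loss causes ataxia and seizures in mice, had 209, 331 and 358 CPM in FRL vehicle (299 ± 79.5) and 223, 222 and 205 in FSL vehicle (217 ± 10.3). Non-responders had 240, 256 and 229 CPM (242 ± 13.5) and responders 220, 298 and 236 (251 ± 41.5). FRL vehicle 1 lay among the FSL libraries, and the line difference was -0.46 ± 0.18 (unadjusted p = 0.0227, adjusted p = 0.286). Over the fits that each left out a library it ran from -0.66 to -0.32.

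Cacnb2 had 83.9, 66.8 and 90.1 CPM in FRL vehicle (80.3 ± 12.1) and 87.8, 69.1 and 75.2 in FSL vehicle (77.4 ± 9.52). Non-responders had 88.5, 94.3 and 110 CPM (97.6 ± 11), all above FSL vehicle, with 88.5 and 87.8 CPM as nearest values. Responders had 93.8, 87.1 and 117 CPM (99.4 ± 15.8), with responder 2 just inside the FSL vehicle range. The differences from FSL vehicle were 0.34 ± 0.15 in non-responders (unadjusted p = 0.0429, adjusted p = 0.976) and 0.36 ± 0.15 in responders (unadjusted p = 0.0309, adjusted p = 0.326). Cacnb3 had 159, 159 and 138 CPM in FRL vehicle, 136, 133 and 127 in FSL vehicle, 145, 118 and 133 in non-responders, and 190, 124 and 133 in responders. The vehicle groups of Cacnb3 lay side by side with 136 and 138 CPM as nearest values, and responder 1 was the highest library. Cacnb1 ran from 81.2 to 117 CPM, with both ends in FSL vehicle.

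Gamma subunits had 6 of 8 members tested. Most of these proteins act less on calcium channels than as TARPs, which bring AMPA-type glutamate receptors to synapses and shape their gating. The family median was -0.22 between the lines, 0.12 in responders and -0.02 in non-responders against FSL vehicle, and 0.12 between the LAC groups. Cacng2, the TARP stargazin, had 16.6, 15.5 and 21.8 CPM in FRL vehicle (18 ± 3.38) and 15.6, 12.4 and 13.2 in FSL vehicle (13.7 ± 1.67), meeting at 15.5 and 15.6. Non-responders averaged 15.1 ± 1.27 CPM and responders 14.1 ± 2.48. The line difference was -0.39 ± 0.17 (unadjusted p = 0.0466, adjusted p = 0.352).

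Cacng8, a TARP typical of hippocampal neurons, had 76.4, 33.3 and 50.6 CPM in FRL vehicle and 76.4, 45.3 and 45.9 in FSL vehicle. Its non-responders had 56.9, 40.5 and 69.5 CPM and its responders 42.5, 49.1 and 72.8, so every group spanned the middle of the range. Cacng3, another TARP, had 39.4, 65.9 and 54 CPM in FRL vehicle, 43.8, 46.6 and 34.3 in FSL vehicle, 47.5, 41.3 and 43.4 in non-responders and 53.3, 45.1 and 37 in responders. FRL vehicle 1 fell among the FSL libraries, and the line difference of Cacng3 was -0.35 ± 0.19 (unadjusted p = 0.0903).

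Cacng4, a TARP known from developing brain and glia, was the member of smallest p between the LAC groups. It had 19.8, 18.7 and 16.6 CPM in responders (18.4 ± 1.65) and 12.8, 15.4 and 13.4 in non-responders (13.9 ± 1.37). FRL vehicle had 15.3, 14.4 and 13.6 CPM (14.4 ± 0.843) and FSL vehicle 16.7, 12.3 and 14 (14.3 ± 2.25). All 3 responders exceeded all 3 non-responders, while FSL vehicle 1 lay just above the lowest responder. The difference was 0.41 ± 0.14 from non-responders (unadjusted p = 0.0132, adjusted p = 0.992) and 0.36 ± 0.14 from FSL vehicle (unadjusted p = 0.0229, adjusted p = 0.305). Cacng7, an atypical TARP, ran from 19.1 to 27.1 CPM, with responders above non-responders by 0.20 ± 0.13 (unadjusted p = 0.146).

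Cacng5, an atypical TARP, lies next to Cacng4 in the RefSeq gene order. It had 4.25, 3.73 and 4.26 CPM in FRL vehicle (4.08 ± 0.3), 3.25, 3.22 and 3.08 in FSL vehicle (3.18 ± 0.0906) and 3.04, 2.24 and 3.96 in non-responders (3.08 ± 0.859). Responders had 11.5, 2.48 and 4.32 CPM (6.1 ± 4.78), so responder 1 was far the highest, responder 3 lay just above the highest library of the other groups, and responder 2 lay inside their range. Its responder differences were 0.99 ± 0.46 from non-responders (unadjusted p = 0.0535) and 0.94 ± 0.46 from FSL vehicle (unadjusted p = 0.0652). Without responder 1 the former was 0.14.

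Sodium channel alpha subunits had 8 of 10 members tested. Their median difference was -0.19 between the lines, 0.27 in responders and 0.16 in non-responders against FSL vehicle, and 0.11 between the LAC groups. Scn2a1 encodes Nav1.2, a channel of excitatory neurons found in axon initial segments and unmyelinated axons. It had 1115, 1254 and 1119 CPM in FRL vehicle (1163 ± 79), 971, 1040 and 813 in FSL vehicle (941 ± 117), 1056, 994 and 996 in non-responders (1015 ± 35.4) and 1079, 1030 and 1108 in responders (1073 ± 39.3). Every FSL vehicle library lay below every FRL vehicle library, and both LAC groups lay between the vehicle means. The line difference was -0.30 ± 0.10 (unadjusted p = 0.0088, adjusted p = 0.261), from -0.38 to -0.20 with single libraries left out. Responders differed from FSL vehicle by 0.19 ± 0.10 (unadjusted p = 0.0756).

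Scn8a encodes Nav1.6, the main channel of mature axon initial segments and nodes. It had 619, 603 and 633 CPM in FRL vehicle (618 ± 14.9) and 584, 452 and 445 in FSL vehicle (494 ± 78.5). Non-responders had 613, 528 and 604 CPM (582 ± 46.8), and responders 455, 604 and 656 (572 ± 104). The lines did not overlap, with 584 and 603 CPM as nearest values, and responder 1 sat at the FSL vehicle level. The line difference was -0.33 ± 0.14 (unadjusted p = 0.0409, adjusted p = 0.336), and non-responders differed from FSL vehicle by 0.24 ± 0.14 (unadjusted p = 0.121).

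Scn1a encodes Nav1.1, the channel best known from fast-firing interneurons. It had 268, 390 and 420 CPM in FRL vehicle (359 ± 80.7) and 297, 236 and 262 in FSL vehicle (265 ± 30.7). Non-responders had 293, 387 and 344 CPM (341 ± 46.8) and responders 372, 411 and 338 (373 ± 36.3). FRL vehicle 1 lay inside the FSL vehicle range, while all 3 responders were above it. The line difference was -0.44 ± 0.17 (unadjusted p = 0.022, adjusted p = 0.285), and responders differed from FSL vehicle by 0.50 ± 0.17 (unadjusted p = 0.0118, adjusted p = 0.275). Non-responders differed by 0.37 ± 0.17 (unadjusted p = 0.0483, adjusted p = 0.976). Summed interneuron markers ranged from 788 to 1173 CPM in FSL vehicle and 999.9 to 1344 in FRL vehicle. The sums ran from 942 to 1073 CPM in non-responders and 1009 to 1128 in responders. FSL vehicle 2, the lowest library in Scn1a, had the highest of the FSL vehicle sums (1173 CPM), of which Reln was 552 CPM. Non-responder 2 had more Scn1a than non-responder 1 at a lower sum (942 against 1073 CPM), with Reln at 240 against 386 CPM. Pvalb, another marker of this list, had 38.6, 69.1 and 60.6 CPM in FRL vehicle and 38.3, 43 and 30.9 in FSL vehicle. Its non-responders had 48.7, 52.1 and 49.5 CPM and its responders 45, 61.2 and 52. FSL vehicle 3 was lowest of the 12 libraries in 5 of the 10 interneuron markers, Gad1 and Pvalb among them. Over all genes, 21.1% were lowest there. Npy, another of the 10 markers, had 0 counts in every library. The part of interneuron content in the Scn1a values was not tested.

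Scn3a, the Nav1.3 gene of developing neurons, ran from 149 to 185 CPM in 11 libraries and stood at 216 CPM in responder 1. Scn4a, best known from skeletal muscle, ran from 1.02 to 6.37 CPM. Scn7a, an atypical sodium-sensing channel gene, ran from 0.387 CPM in FSL vehicle 2 to 4.76 CPM in FSL vehicle 3, so FSL vehicle alone covered the whole range. Its line difference was 1.06 (unadjusted p = 0.182).

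All 4 sodium channel beta subunits were tested, and all 4 had lower fitted means in FSL than in FRL vehicle, 3 of them with unscaled library sizes. The family's median was -0.29 between the lines. It was 0.33 in responders and 0.34 in non-responders against FSL vehicle, and -0.04 between the LAC groups.

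Scn3b, a beta subunit of central neurons, had 660, 355 and 367 CPM in FRL vehicle, 445, 533 and 291 in FSL vehicle, 585, 372 and 515 in non-responders and 378, 446 and 664 in responders. Each group of Scn3b thus spanned much of the full range. Scn4b, the subunit linked to resurgent current, had 39.1, 57.7 and 62.5 CPM in FRL vehicle, 35.1, 33.4 and 47.2 in FSL vehicle, 47.5, 62 and 58.5 in non-responders and 33.9, 79.2 and 48.7 in responders. Non-responders lay just above FSL vehicle, by 0.54 ± 0.28 (unadjusted p = 0.0847), while responders covered a wider range than any other group. Scn2b, which lies next to Scn4b in the RefSeq gene order, ran from 81.5 CPM in responder 1 to 121 CPM.

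The HCN genes had the line median nearest to 0 of the 7 families (-0.09). Their medians were 0.02 in responders and -0.07 in non-responders against FSL vehicle, the former -0.02 with unscaled library sizes, and 0.02 between the LAC groups. Hcn2, a slower and widely expressed HCN channel, had 79.6, 91.6 and 84 CPM in FRL vehicle, 99.5, 63.1 and 76.9 in FSL vehicle, 81.7, 78.1 and 95.3 in non-responders and 82.6, 97.4 and 72.2 in responders. The FSL vehicle libraries thus held both the highest and the lowest Hcn2 level. Hcn3 ran from 10.2 to 14 CPM.

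Responder 1 stood apart in several members, some of them sparsely detected. It held 14 CPM of Hcn4, the pacemaker HCN gene, at 4.07 times the median of the other 11 libraries (2.29 to 7.42 CPM), a member picked out after its values were seen. It also held 10.2 CPM of Scn9a, the Nav1.7 gene, against 3.43 to 5.74 CPM elsewhere, and 43.5 CPM of Cacna2d2 against 15.9 to 35.9. Scn9a differed between responders and non-responders by 0.60 ± 0.35 (unadjusted p = 0.117), and by -0.01 without responder 1. Responder 1 was highest of the 12 libraries in 10 members and lowest in 3, while 12.9% of all genes were highest and 9.54% lowest there.

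Responder 1 also held markers of other brain regions. Its thalamus and midbrain markers summed to 664 CPM over 9 genes, against 225 to 371 CPM in the other 11 libraries, and 3 of the 9 were highest there. The high sum rests on these 3: Tcf7l2 (156 CPM against at most 20.4), Slc17a6 (274 against at most 69.5) and Calb2 (99.97 against at most 21.1), which is also a mossy cell gene. The other 6 markers summed to 134 CPM, the lowest of the 12 libraries (145 to 273 CPM in the others), and Plekhg1 (27.3 CPM) was lowest there. Striatal markers summed to 346 CPM against 163 to 231, with 4 of 7 highest in responder 1, and hypothalamic markers to 15.2 CPM against 2.12 to 8.06, with 3 of 7 highest. Granule neuron markers summed to 488 CPM, inside the range of the others (375 to 639), but Prox1 and C1ql2 (3.31 CPM) were the lowest of the 12. The 7 markers of skeletal and cardiac muscle summed to 22.1 CPM, inside the range of the others (15.1 to 49.97). Of these, Ckm had 0 or 1 count in each library, while Myh7 (3.31 CPM, 27 counts) was highest in responder 1. The part of this tissue makeup in the high Hcn4, Cacng5 and Scn9a levels was not tested.

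**Figure D4:**
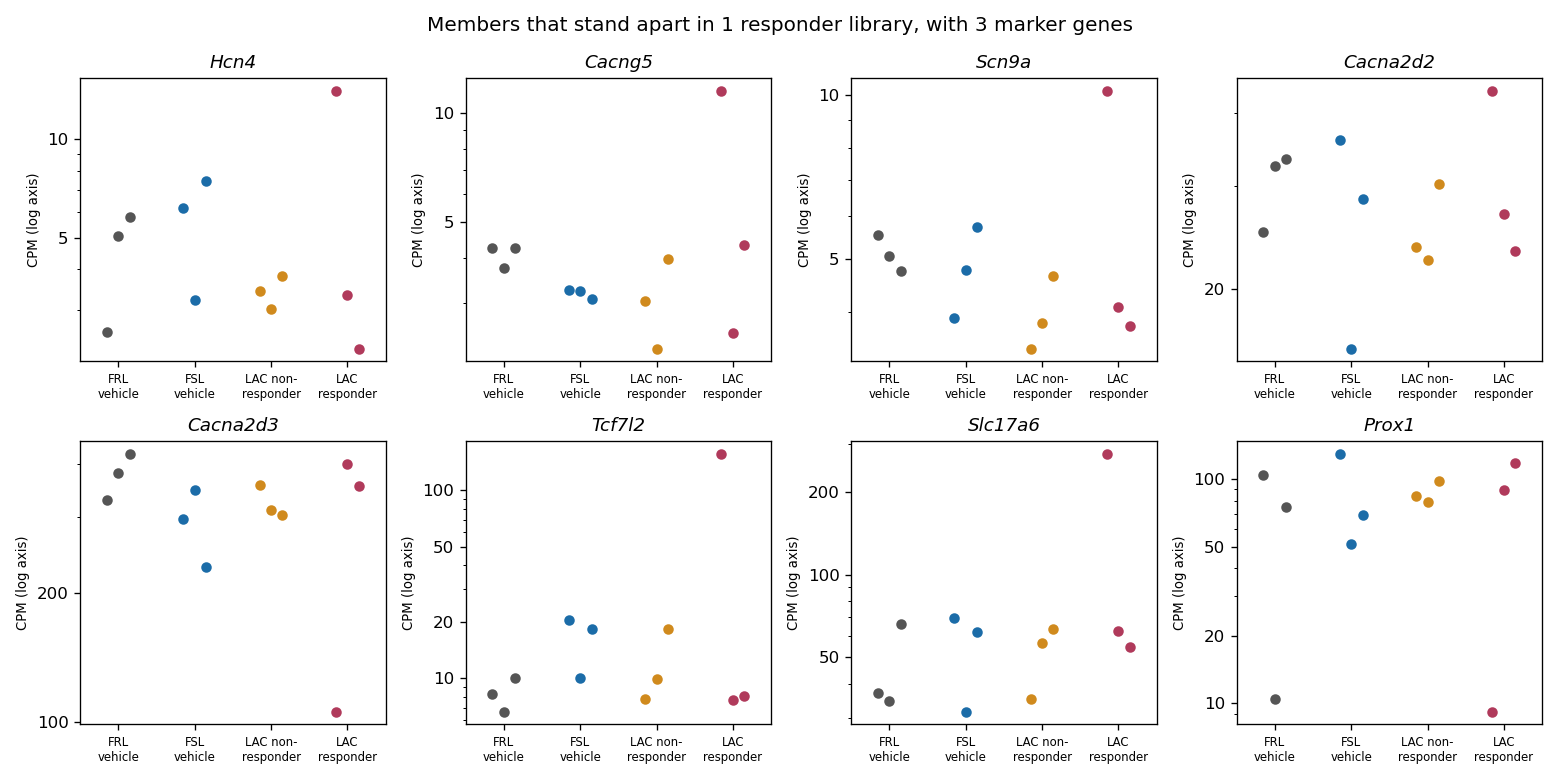
CPM of 5 members (Hcn4, Cacng5, Scn9a, Cacna2d2 and Cacna2d3) and of the markers Tcf7l2, Slc17a6 and Prox1 on logarithmic axes, with 1 point per library in its group and replicates 1 to 3 from left to right. Hcn4 is at 14 CPM in responder 1 against 2.29 to 7.42 in the others, whereas Cacna2d3 is at 106 CPM there against 230 to 421.

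The 7 members that missed the filter were rarely read in this tissue. They were Cacna1s (2 to 12 counts per library), the skeletal muscle pore, the retinal Cacna1f (0 to 7) and Cacna2d4 (0 to 7), and the muscle gamma subunits Cacng1 (0 to 2) and Cacng6 (2 to 4). The sensory neuron genes Scn10a (0 to 3) and Scn11a (0 to 17) complete them. Scn11a reached its highest level, 2.38 CPM, in FSL vehicle 3. Cacng1 was at 0 counts in 6 libraries and Scn10a in 4, which at these depths allows a level up to the floor of 3 counts.

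Genes that act with these channels were read from 5 lists, with 71 of 80 listed genes in the files and 70 tested. They cover sodium channel partners, calcium channel and release-site partners, HCN partners, and AMPA receptors with their auxiliary proteins. The remaining list holds calcium store and leak channels with calcium pumps, exchangers, and calcium-dependent kinase and phosphatase genes. After adjustment 0 of 70 were called in any of the 4 comparisons. Between the lines 55 of 70 were negative (78.6%, against 51.6% of genes), with a median of -0.15, and 9 had an unadjusted p under 0.05 (12.9%, against 13.9% of genes; 6 lower and 3 higher). In either direction that share was near the background. By direction, 4.53% of all genes were lower and 9.35% higher, the reverse order of the 6 and 3 partners. The genes below are descriptions of levels. The lower ones were Cabp1, a calcium channel regulator, Fgf12, a sodium channel partner, the release-site genes Rims1 and Rims2, and the vesicle fusion genes Snap25 and Syt1. The higher ones were Flna, Gem and Itpr2. Snap25 had 1619, 1827 and 1874 CPM in FRL vehicle and 1512, 1405 and 1154 in FSL vehicle, without overlap (-0.39 ± 0.11, unadjusted p = 0.00538, adjusted p = 0.251).

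Cabp1 had 39.5, 46.7 and 44.5 CPM in FRL vehicle, 32.1, 36 and 32.8 in FSL vehicle, 40.6, 39.4 and 46.8 in non-responders and 58, 48.5 and 48.5 in responders. FSL vehicle lay below every other library and responders above every other library. Responders differed from FSL vehicle by 0.62 ± 0.11 (unadjusted p = 1.10e-04, adjusted p = 0.237). In responders against FSL vehicle 47 of 70 partners were positive (67.1%, against 52% of genes; median 0.12), with 8 unadjusted p-values under 0.05 (11.4%, against 13.8% of genes), 4 in each direction. In non-responders 46 were positive (65.7%, against 48.9% of genes; median 0.07), with 4 such p-values (5.71%, against 4.21% of genes). Between the LAC groups 36 were positive (51.4%, against 50.3% of genes; median 0.02), with 2 such p-values (2.86%, against 3.14% of genes).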

How the data were processed

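The deposited values are raw read counts, as whole numbers, for 17172 gene symbols and 5 summary lines in each of 12 libraries. Per the labels, about 130 mg of tissue gave total RNA for ribosomal-RNA-depleted, stranded libraries, read as 100 bp single reads. The submitters' processing notes name the build rn5, TopHat2 2.0.9, HTSeq 0.6.1, Trimmomatic 0.33, FastQC 0.11.3 and edgeR 3.12.0, without roles. Which annotation and strand setting the counting used was not given in the sources used here. Overlapping and antisense genes thus cannot be told apart. Summary lines entered neither library sizes nor tests: reads in no gene made up 47.7% to 52.7% of the reads in the files, ambiguous reads 0.0756% to 0.106% and reads with several alignments 24.3% to 28.4%.

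Counts were tested with edgeR 4.0.16 (R 4.3.3): TMM factors (0.975 to 1.04), edgeR's default expression filter (11750 genes kept) and quasi-likelihood fitting, robust, over the 12 libraries with a mean for each group (8 residual degrees of freedom, common biological coefficient of variation 0.178). Tests were two-sided, with Benjamini-Hochberg adjustment over all genes and a threshold of 0.05. The SE of a log2 fold change is its size divided by the square root of F. The procedure was tested on simulated data. Alternatives were RLE factors, unscaled library sizes, other filters (none, or 1 CPM in 3 libraries), DESeq2 1.42.0, limma-voom (limma 3.58.1), the compared groups only, a replicate block and left-out libraries. A block within the compared groups was chosen after seeing the data.

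Deviations from the group means of same-numbered libraries correlated at 0.581, 0.212 and 0.426 between FSL vehicle and non-responders. By the rule used, the numbers of the library names were thus treated as pairing these groups and no others. The labels name no pairing, and differently numbered libraries were not correlated, so these values cannot show that one exists. Members, partner lists and marker lists were chosen with earlier results of these data known. Named members are the 5 of smallest p in each comparison and the 2 of highest mean CPM in each family; others were named after their values were seen. Counts and medians cover all members tested, and 3 of these are not reported singly here. Promoter sequences and gene order come from RefSeq tables on GRCr8, another build than the files', and no coordinate was taken from the files.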

Additional observations from a re-analysis of the deposited data

How the results depend on the processing

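No setting called a member at the adjusted threshold. Counts of members with an unadjusted p under 0.05 (7 between the lines, 5 in responders and 3 in non-responders against FSL vehicle, 2 between the LAC groups) moved more. The shares of all genes were 13.9%, 13.8%, 4.21% and 3.14% in that order, and they moved as well. With unscaled library sizes the counts were 4 between the lines (14.1% of genes) and 1 in non-responders (4.49%). In fits of the compared groups only, they were 4 between the lines (8.97% of genes), 1 in responders (7.97%) and 1 between the LAC groups (5.35%). The replicate block gave 3 in responders (13.4% of genes). The block within the compared groups was chosen after seeing the data. It gave 4 between the lines (8.21% of genes), 1 in responders (3.7%) and 1 between the LAC groups (5.64%). For FSL vehicle and non-responders, the groups treated as paired by library number, either block left 3 (4.09% and 4.74% of genes) and changed no call. Without FRL vehicle 2 and responder 1, the 2 libraries low in Prox1, there were 4 between the lines (9.81% of genes) and 0 between the LAC groups (1.99%). Without the 3 libraries with high choroid plexus sums, which leaves 1 FSL vehicle library that is assumed to vary like the other groups, there were 9 in responders and 7 in non-responders. DESeq2 and limma-voom each gave 1 between the LAC groups (2.54% and 2.39% of genes). Leaving out single libraries gave 2 to 13 between the lines (6.28% to 21.6% of genes) and 1 to 10 in responders (5.38% to 25.1%). It gave 0 to 6 in non-responders (2.7% to 10%) and 1 to 5 between the LAC groups (2.26% to 5.03%). Signs turned in 2 of 345 refits over 15 named differences. Scn9a between the LAC groups ran from -0.0106 (without responder 1) to 0.83, and was -0.0102 without the 2 libraries low in Prox1. The cause of these shifts was not tested. With 3 libraries a group and low counts in Scn7a and Scn4a (3 and 6 counts at the lowest), small differences were not detectable at this depth.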
